A study of Mus musculus with 6 samples.

Results

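The genes described here encode receptors by which a macrophage reads chemokines, complement fragments, bacterial peptides, nucleotides, prostaglandins, lysophospholipids and amines. They were chosen by symbol, as every gene on the array whose name begins with Ccr, Cxcr, Gpr and a digit, P2ry, Fpr, Ptger, Ptgir, Adora, Cnr, Adrb, Adra, Hrh, C3ar, C5ar, S1pr or Lpar. This gave 66 of the 8841 genes on the array, each read by 1 probe. The rule itself uses symbols and no measured value, and 1 further P2ry gene was not analysed here. Messenger RNA came from the macrophages that thioglycollate, an irritant, draws into a tissue, taken from 6-week-old C57BL/6 mice, all female. It was hybridised to 6 single-colour arrays, 1 for each group. A pair of groups had no LPS (No treatment and TSA). The other 4 had it, either alone (LPS), with 1 further agent (TSA + LPS or GW3965 + LPS) or with both (TSA + GW3965 + LPS). LPS is lipopolysaccharide, a cell wall component of Gram-negative bacteria sensed by Toll-like receptor 4. TSA is trichostatin A, an inhibitor of the histone deacetylases that take acetyl groups off histones and other proteins. GW3965 activates the liver X receptors, nuclear receptors of cholesterol export, and was given only together with LPS. The 6 arrays share strain, sex, age and cell source, and the labels give no dose or time. They also do not say whether the arrays came from separate animals or cultures.

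G protein-coupled receptors span the membrane several times and pass the signal of an outside ligand to a heterotrimeric G protein. Receptors coupled to Gs raise cyclic AMP, which restrains many inflammatory programmes of macrophages, whereas those coupled to Gi lower it and drive migration and calcium release. Atypical receptors bind a ligand without this signalling. In macrophages these families govern recruitment by chemokines, C5a and formyl peptides, and the response to prostaglandin E2, extracellular nucleotides and acid.

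Values are intensities on a linear scale already scaled by the submitters, with an array median of 0.981 to 0.987, so a value near 1 is the middle of the array. Values under each array's 25th percentile (0.198 to 0.245) were treated as a floor, and a fold that uses one is given as "at least". Fitted effects of genes with values near or under the floor depend on where it lies. A probe's level shows how that gene differed between arrays, and levels of different probes were not compared. The effects of LPS, TSA and GW3965 were estimated with limma in one additive model over all 6 arrays, as log2 differences with a standard error (SE). "Rose" and "fell" are used for a two-sided p under 0.05 after Benjamini-Hochberg adjustment over the 4806 genes at or above the array median on at least 2 arrays. The residual has 2 degrees of freedom. With 1 array a group, it mixes departures from additivity between treatments with scatter of the arrays, which may be technical. Its variance is moderated towards that of all tested genes (15.1 prior degrees of freedom). A p-value reflects no more than this mixture and not a spread between replicates. All comparisons reuse the same 6 arrays. The LPS estimate is the mean of 2 differences, LPS minus No treatment and TSA + LPS minus TSA. The arrays with GW3965 enter only its error. Leaving either of them out cannot move the LPS estimate, so those fits are no checks of it. Fits with another setting or with an array left out estimate their error anew. A lower adjusted p in one of them is therefore not stronger evidence than the value from the fit described here.

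Most markers of the labelled cell type gave signal. Of 8 macrophage markers on the array, 7 stood at or above the array median on all 6. The 8 summed to an intensity of 1450 to 2230, most of it Lyz1 (632 to 1100) and Lyz2 (729 to 1050). Sums of different lists rest on different probes and were not compared. Adgre1, the gene of the macrophage antigen F4/80, read 0.73 without treatment and 1.06 to 2.84 on the other arrays. The 8 neutrophil markers summed to 24.7 without treatment, 38.4 with TSA and 52.5 to 83.4 on the 4 arrays with LPS. Most of that sum was S100a8, the only one of the 8 at or above the median on all 6 arrays. Camp and Prtn3 were at or above it on 3 arrays each and Csf3r and Ltf on 1 each, while Elane, Mpo and Ngp were below it on all 6. The 9 T cell markers summed to at most 4.9. The 6 B cell markers summed to 9.59 to 11.9, and 4 of them were at or above the median on all 6 arrays. The 3 natural killer cell markers summed to 21.7 to 39.9, nearly all of it Gzma. The 7 mast cell and eosinophil markers summed to 17.2 to 25, and the 5 of mesothelial cells and fibroblasts to 8.58 without treatment and 13.1 to 15.8 elsewhere.

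Some of the receptors stood at or above the array median in every condition. Of the 66 genes, 35 were at or above it on at least 1 array, 22 of them on all 6. Among all 8841 genes, 5080 were at or above it on at least 1. The median is a position on the array and not a limit of detection. The other 31 were below it on all 6, with intensities of -0.00436 to 0.814, and 10 of these were under the floor on all 6. At or above the median on 1 array or more were 5 of 15 chemokine receptors, 4 of 4 complement and formyl peptide receptors and 1 of 5 purine receptors. The counts were 2 of 5 for prostanoid, 4 of 9 for lysophospholipid, 5 of 7 for amine and cannabinoid and 14 of 21 for numbered receptors. Ccr2, Ccr3, Ccr6, Ccr7, Ccr8, Ccr10, Ccr1l1, Cxcr2, Cxcr5 and Cxcr6 were the chemokine receptors below the median throughout, among them the monocyte receptor Ccr2 and the lymph node homing receptor Ccr7. Likewise low were the histamine receptors Hrh1 and Hrh4, the prostaglandin E receptors Ptger1, Ptger3 and Ptger4, and S1pr1, S1pr3, S1pr4, S1pr5 and Lpar3. So were Adora3, P2ry1, P2ry2 and P2ry4, and the numbered genes Gpr19, Gpr27, Gpr37l1, Gpr45, Gpr50, Gpr85 and Gpr182. A low probe can be insensitive, so these values set no limit on the receptors' presence. The test covered 33 of the 66 genes (50.0%), against 4806 of 8841 genes on the array (54.4%).

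LPS raised 6 receptor genes and lowered 7. The 6 that rose were Fpr2, Ccrl2, Lpar1, P2ry14, Hrh2 and C5ar1, and the 7 that fell were Cnr2, Gpr162, Lpar6, Gpr146, Ptger2, Ccr1 and Gpr35. The 6 make up 18.2% of the 33 tested, where 12.5% of all tested genes rose, and the 7 make up 21.2%, where 6.76% of all tested genes fell. Of these 13, only Ccrl2, P2ry14, Hrh2, C5ar1, Gpr146, Ccr1 and Gpr35 were at or above the median on all 6 arrays. The other 6 passed the level filter through the arrays where they were high, so the counts support nothing about the receptors as a class. The median LPS effect was -0.03 over the 33 receptor genes and 0.04 over all tested genes. With RNA pooled from many cells, fewer cells of a type and less RNA per cell cannot be told apart.

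**Figure D1:**
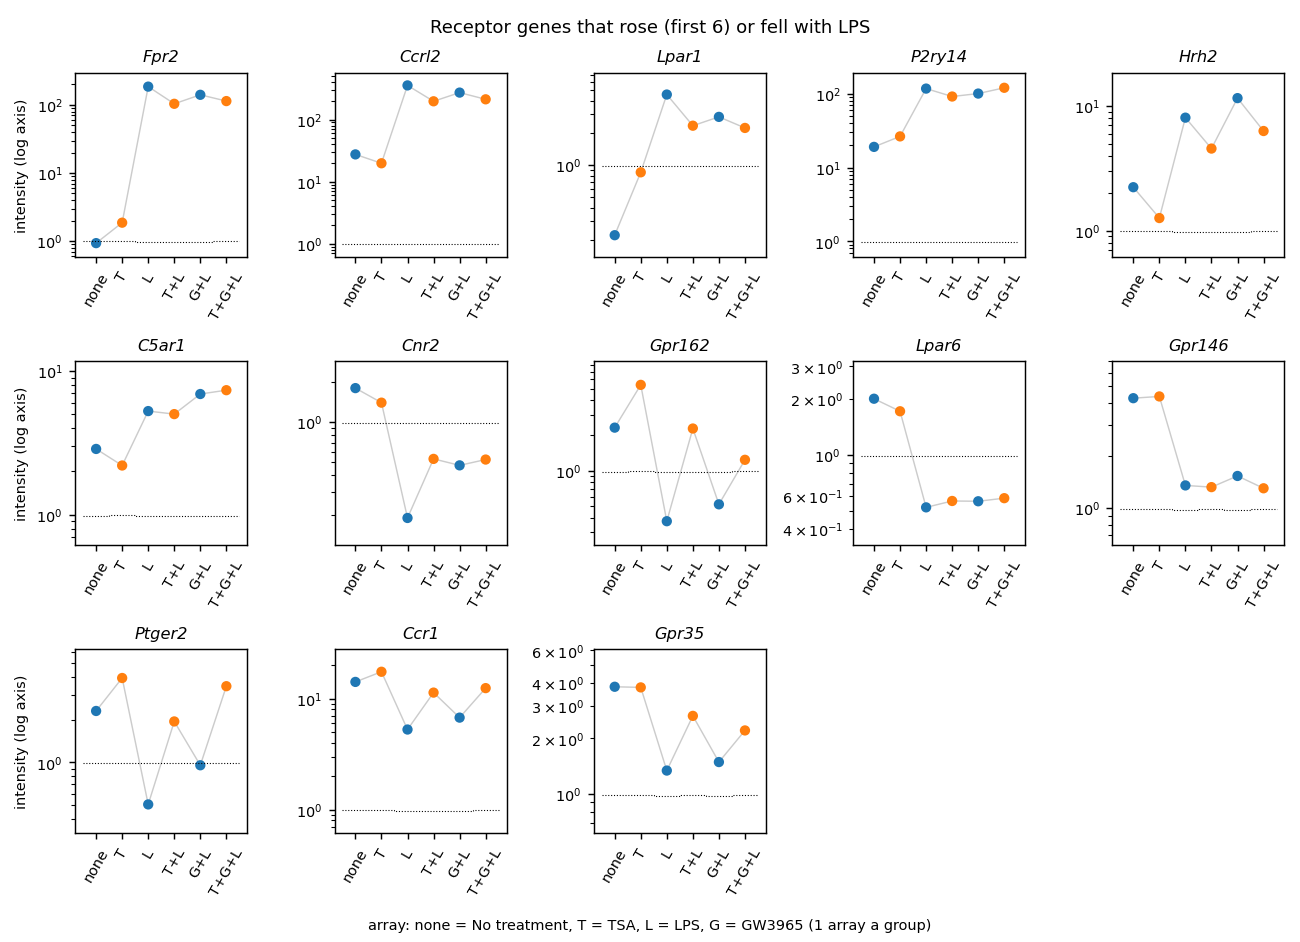
Intensity (log axis) of the 13 receptor genes that rose or fell with LPS, 1 point for each array, orange with TSA and blue without; the dotted line is the array median. Fpr2 goes from 0.931 and 1.86 without LPS to between 104 and 186 with it, and Gpr146 from 4.28 and 4.38 to between 1.3 and 1.53.

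Among complement and formyl peptide receptors, Fpr2 rose most. Fpr2 senses formylated bacterial and mitochondrial peptides as well as serum amyloid A and annexin A1. Its intensity was 0.931 with No treatment, 1.86 with TSA, 186 with LPS, 104 with TSA + LPS, 141 with GW3965 + LPS and 114 with TSA + GW3965 + LPS. The 4 arrays with LPS lay far above both arrays without it. The LPS effect was 6.73 on the log2 scale (SE 0.33, limma adjusted p 6.68e-11). C5ar1, the receptor of the anaphylatoxin C5a, a strong attractant of phagocytes, read 2.87, 2.2, 5.27, 5.02, 6.93 and 7.37 on the same arrays in that order. All 4 LPS arrays were above both others, and the effect was 1.03 (SE 0.26, limma adjusted p 0.00919). Without the TSA array it was 0.84 with an adjusted p of 0.15, the highest of the 6 fits that leave out an array, whose lowest was 0.00452. C3ar1, the receptor of C3a, did not pass for LPS (-0.18, SE 0.24, limma adjusted p 0.702). Fpr-rs4, a rodent-specific relative of Fpr2, stayed close to the median at 0.76 to 1.14. Whether a probe also binds a relative of its gene was not tested. Of the neutrophil markers, S100a8 read 22 and 31.8 without LPS and 47.2 to 78.8 with it, and Camp 0.0692 and 0.172 without, both under the floor, and 0.834 to 2.54 with it. Ltf was lower on the arrays with LPS, at 0.306 to 0.435 against 0.771 and 1.11, and the other 5 markers overlapped between the arrays with and without LPS. The part of neutrophils in the rise of Fpr2 and C5ar1 was not tested.

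The chemokine receptors held 1 gene that rose and 1 that fell. Ccrl2, an atypical receptor that binds chemerin and presents it to other cells without G protein signalling, read 27.5 with No treatment, 19.8 with TSA and 355 with LPS. It read 197 with TSA + LPS, 272 with GW3965 + LPS and 212 with TSA + GW3965 + LPS. Both arrays without LPS lay below all 4 with it, and the LPS effect was 3.50 (SE 0.23, limma adjusted p 4.16e-09). Ccr1, the receptor of Ccl3 and Ccl5, read 14.1 with No treatment, 17.4 with TSA, 5.26 with LPS, 11.3 with TSA + LPS, 6.73 with GW3965 + LPS and 12.4 with TSA + GW3965 + LPS. The lowest values were those of both LPS arrays without TSA. The LPS effect was -1.02 (SE 0.27, limma adjusted p 0.0105). It was -0.68 without the No treatment array (adjusted p 0.278) and -0.77 without the LPS array (adjusted p 0.0664), within a range of 0.000609 to 0.278 over the 6 fits that leave out an array. The 3 other chemokine receptors tested did not pass for any treatment. Cxcr4, the receptor of Cxcl12, read 14.6 to 20.1, Ccr4, which binds Ccl17 and Ccl22, read 2.26 to 3.67, and Cxcr3, which binds the interferon-induced Cxcl9 to Cxcl11, read 1.34 to 2.14.

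Among the purine receptors read here, P2ry14 alone reached the array median. It is activated by UDP-glucose and related sugar nucleotides released from stressed cells. Its intensity was 19.1 with No treatment, 26.5 with TSA, 118 with LPS, 92.1 with TSA + LPS, 101 with GW3965 + LPS and 121 with TSA + GW3965 + LPS. The 4 arrays with LPS all lay above the others, with an effect of 2.21 (SE 0.25, limma adjusted p 3.41e-06).

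Lysophosphatidic acid (LPA) receptors moved in opposite directions. Lpar1 was under the floor with No treatment at 0.221 and read 0.857 with TSA, 4.58 with LPS, 2.34 with TSA + LPS, 2.83 with GW3965 + LPS and 2.23 with TSA + GW3965 + LPS. It passed the array median only on the 4 arrays with LPS, and the LPS effect was 2.89 (SE 0.46, limma adjusted p 0.00014). Without the No treatment array the effect was 1.61 and still passed, and over the 6 fits that leave out an array the adjusted p was 2.54e-25 to 0.00325. With the floor at the array median the effect was 1.73 (adjusted p 0.000608, the highest over the settings that use all 6 arrays, from 2.52e-16). Lpar6 read 2.01 with No treatment and 1.72 with TSA, but 0.521 to 0.584 on the 4 arrays with LPS. These groups did not overlap, and the effect was -1.78 (SE 0.30, limma adjusted p 0.000252). With the floor at the array median, above all 4 LPS values, it was -0.92 (adjusted p 0.00431, the highest of a range from 5.98e-06). Lpar2, the other LPA receptor tested, read 0.804 to 1.1 and did not pass for any treatment.

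The prostaglandin E2 receptor gene Ptger2, coupled to Gs, read 2.3 with No treatment, 3.93 with TSA, 0.504 with LPS, 1.94 with TSA + LPS, 0.952 with GW3965 + LPS and 3.44 with TSA + GW3965 + LPS. Both LPS arrays without TSA were the lowest. The LPS effect was -1.61 (SE 0.32, limma adjusted p 0.0011). Without the No treatment array it was -1.04 (adjusted p 0.132, the highest of a range from 1.38e-07 over the 6 fits that leave out an array). Ptgir, the receptor of prostacyclin, read 1.43 to 2.29 and did not pass for any treatment.

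Among amine and cannabinoid receptors, the Gs-coupled histamine receptor Hrh2 rose. Its intensity was 2.23 with No treatment, 1.26 with TSA, 8.08 with LPS, 4.56 with TSA + LPS, 11.6 with GW3965 + LPS and 6.31 with TSA + GW3965 + LPS. Every LPS array was above both others, and the LPS effect was 1.85 (SE 0.26, limma adjusted p 3.46e-05). Cnr2, the cannabinoid receptor of immune cells, read 1.8 with No treatment and 1.4 with TSA. It was under the floor with LPS at 0.191 and read 0.53 with TSA + LPS, 0.474 with GW3965 + LPS and 0.524 with TSA + GW3965 + LPS. The 4 LPS arrays lay below the others, with an effect of -2.29 (SE 0.38, limma adjusted p 0.000206). Leaving out the LPS array gave -1.53, which still passed, with an adjusted p of 3.61e-11 to 0.00763 over the 6 such fits. With the floor at the array median it was -0.69 (adjusted p 0.0248, the highest of a range from 4.04e-10 over the settings that use all 6 arrays). Cnr1, the cannabinoid receptor best known from neurons, read 1.33 to 1.48 without LPS and 0.822 to 1.16 with it, and its effect of -0.74 did not pass (SE 0.29, limma adjusted p 0.0922). The adrenergic receptors Adra1b, at 2.89 to 4.35, and Adra2c, at 1.57 to 2.53, did not pass for any treatment.

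Of the numbered receptors, Gpr146, Gpr162 and Gpr35 fell with LPS. Gpr146 read 4.28 with No treatment, 4.38 with TSA, 1.35 with LPS, 1.32 with TSA + LPS, 1.53 with GW3965 + LPS and 1.3 with TSA + GW3965 + LPS. The 4 LPS arrays were closely alike and below the other pair, and the effect was -1.70 (SE 0.27, limma adjusted p 0.000165). Gpr162, an orphan receptor, read 2.33 with No treatment, 5.39 with TSA, 0.372 with LPS, 2.29 with TSA + LPS, 0.518 with GW3965 + LPS and 1.24 with TSA + GW3965 + LPS. Its LPS effect was -1.94 (SE 0.34, limma adjusted p 0.000383), and -1.25 without the LPS array, which still passed, the adjusted p over the 6 fits being 4.95e-12 to 0.00865. With the floor at the array median it was -1.24 (adjusted p 0.00587, the highest of a range from 2.24e-07 over the settings that use all 6 arrays). Gpr35, for which the tryptophan product kynurenic acid is a proposed ligand, read 3.81 with No treatment, 3.78 with TSA, 1.34 with LPS, 2.65 with TSA + LPS, 1.49 with GW3965 + LPS and 2.21 with TSA + GW3965 + LPS. All LPS arrays lay below both others, and the effect was -1.01 (SE 0.29, limma adjusted p 0.0216). It was -0.61 without the No treatment array (adjusted p 0.497) and -0.66 without the LPS array (adjusted p 0.123), within 0.000216 to 0.497 over the 6 fits.

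The remaining numbered genes tested did not pass for LPS or TSA, apart from Gpr65 and Gpr3 described with TSA. Gpr34, a receptor of lysophosphatidylserine, read 1.06 to 1.51, and Gpr132, a receptor linked to lipids and acid, read 2.51 to 3.81. Gpr12, a receptor active without added ligand that raises cyclic AMP, read 0.729 to 1.1. Gpr37 read 5.32 to 6.53. Gpr89, a Golgi ion channel rather than a receptor, read 7.07 to 10.5. Gpr108 read 3.93 to 7.88 and Gpr180 4.87 to 8.63. These 7 did not pass for any treatment. Gpr31b and Gpr83 reached the median on 1 array only and were not tested. Gpr31b read 1.42 with LPS, 0.728 with GW3965 + LPS and 0.341 to 0.422 on the other 4, and Gpr83 read 1.05 with TSA + LPS and 0.457 to 0.756 elsewhere.

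The 250 bases before the annotated starts were read from RefSeq's promoter table (GRCm38.p6) for the receptors that moved, to show where known inflammatory motifs lie. All 6 receptors that rose with LPS had an entry, with 14 starts. Of the 7 that fell, 6 had an entry, with 10 starts, and Gpr162 had none. The NF-kB letters searched were GGGANTTTC, GGGANTTCC, GGGGNTTCC and GGGGNTTTC, on both strands, and 4.46% of 32817 mouse windows of that length held one. Among receptors that rose, 3 of 14 windows held a match, 1 each in Ccrl2, Lpar1 and P2ry14. Among those that fell, 1 of 10 did, in Gpr35. The interferon response element, GAAANNGAA, lay in 7.12% of all windows and in C5ar1 alone among these receptors. The gamma-activated site, TTCCNGGAA (0.914% of all windows), matched none of them. The cyclic AMP response element, TGACGTCA (1.55%), had 1 match, 174 to 181 bases before the start of S1pr2, which fell with TSA. No window held more than 1 match, and genes with several starts had more chances of one. A match is a description of letters and not a site of binding. Starts of a gene are numbered by rising chromosome coordinate, so on the minus strand the first start is the one furthest downstream. The windows follow, 5′ to 3′ on the gene's strand, with the match in capitals, for the gene with the largest rise and for the 5 windows with a match in the receptors that moved with LPS.
Fpr2, chr17:17887574-17887823, plus strand, no match: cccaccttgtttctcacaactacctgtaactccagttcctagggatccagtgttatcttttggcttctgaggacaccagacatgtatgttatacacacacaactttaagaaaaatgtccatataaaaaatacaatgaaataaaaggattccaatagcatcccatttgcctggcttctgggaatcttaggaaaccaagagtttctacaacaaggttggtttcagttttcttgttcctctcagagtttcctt
Ccrl2, the third of its starts, chr9:111057519-111057768, minus strand, NF-kB letters 48 to 56 bases before the start: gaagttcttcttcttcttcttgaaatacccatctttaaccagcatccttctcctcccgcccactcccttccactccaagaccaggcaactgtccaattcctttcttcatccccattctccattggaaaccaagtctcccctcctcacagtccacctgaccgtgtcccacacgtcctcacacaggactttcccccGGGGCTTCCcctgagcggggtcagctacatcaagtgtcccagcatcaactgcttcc
Lpar1, the third of its starts, chr4:58553492-58553741, minus strand, NF-kB letters 184 to 192 bases before the start: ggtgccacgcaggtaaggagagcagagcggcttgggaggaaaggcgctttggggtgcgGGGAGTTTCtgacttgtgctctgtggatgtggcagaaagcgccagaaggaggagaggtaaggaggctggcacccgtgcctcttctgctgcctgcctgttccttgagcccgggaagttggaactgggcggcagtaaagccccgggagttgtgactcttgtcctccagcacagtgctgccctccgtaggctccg
P2ry14, the first of its starts, chr3:59130763-59131012, minus strand, NF-kB letters 27 to 35 bases before the start: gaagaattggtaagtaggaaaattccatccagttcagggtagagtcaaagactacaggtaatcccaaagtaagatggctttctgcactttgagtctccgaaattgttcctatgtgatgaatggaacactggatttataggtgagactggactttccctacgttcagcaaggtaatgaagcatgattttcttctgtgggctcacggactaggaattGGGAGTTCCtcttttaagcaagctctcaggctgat
C5ar1, chr7:16259339-16259588, minus strand, interferon response element letters on the opposite strand, 58 to 66 bases before the start: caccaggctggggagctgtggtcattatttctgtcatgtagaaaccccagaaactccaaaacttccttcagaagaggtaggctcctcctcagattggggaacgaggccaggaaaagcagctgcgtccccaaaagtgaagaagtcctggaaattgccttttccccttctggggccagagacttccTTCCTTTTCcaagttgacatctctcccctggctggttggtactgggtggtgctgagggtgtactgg
Gpr35, the first of its starts, chr1:92972869-92973118, plus strand, NF-kB letters on the opposite strand, 145 to 153 bases before the start: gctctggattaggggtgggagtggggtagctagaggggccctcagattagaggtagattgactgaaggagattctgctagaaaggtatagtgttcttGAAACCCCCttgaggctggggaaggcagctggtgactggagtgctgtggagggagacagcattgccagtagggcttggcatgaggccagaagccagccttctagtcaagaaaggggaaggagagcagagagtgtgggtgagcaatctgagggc

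**Figure D2:**
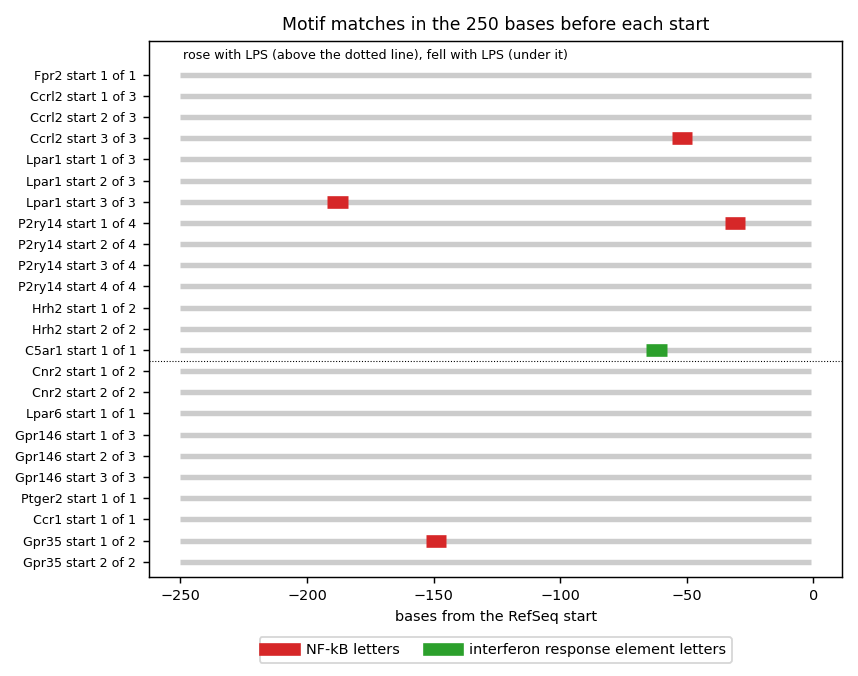
Position of motif matches in the 250 bases before each RefSeq start (horizontal axis, bases from the start) for the receptor genes that rose (above the dotted line) or fell (under it) with LPS. The NF-kB letters fall 27 to 56 bases before a start in P2ry14 and Ccrl2 and 145 to 192 bases before it in Gpr35 and Lpar1, and the interferon element letters 58 to 66 bases before the start of C5ar1.

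TSA raised 6 receptor genes and lowered 2. Those that rose were Gpr65, Gpr162, Ptger2, Gpr3, Ccr1 and C3ar1, or 18.2% of the 33 tested, where 10.8% of all tested genes rose. Those that fell were Hrh2 and S1pr2, or 6.06%, where 7.64% of all tested genes fell. Gpr162 and Ptger2 reached the median only with No treatment and on the arrays with TSA, and S1pr2 on 4 arrays. These genes passed the level filter through the arrays where they were high, so the TSA counts support nothing about the receptors as a class. The median TSA effect was 0.02 over the receptors and 0.01 over all tested genes. The 3 pairs of arrays with and without TSA were TSA against No treatment, TSA + LPS against LPS, and TSA + GW3965 + LPS against GW3965 + LPS. Leaving out either array of a pair gave the same TSA estimate, so those 2 fits are not separate checks. The 2 dendritic cell markers on the array, nearly all Itgax, summed to 11 to 12.6 on the 3 arrays with TSA and 17.9 to 24.9 on the 3 without. The sum of the neutrophil markers was higher with TSA in all 3 pairs, at 38.4 against 24.7, 83.4 against 52.5 and 74.6 against 52.9. S100a8 and Prtn3 were higher with TSA in all 3 pairs, whereas Csf3r was lower in all 3 and Camp in both pairs with LPS. The part of these cells in the TSA effects was not tested.

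**Figure D3:**
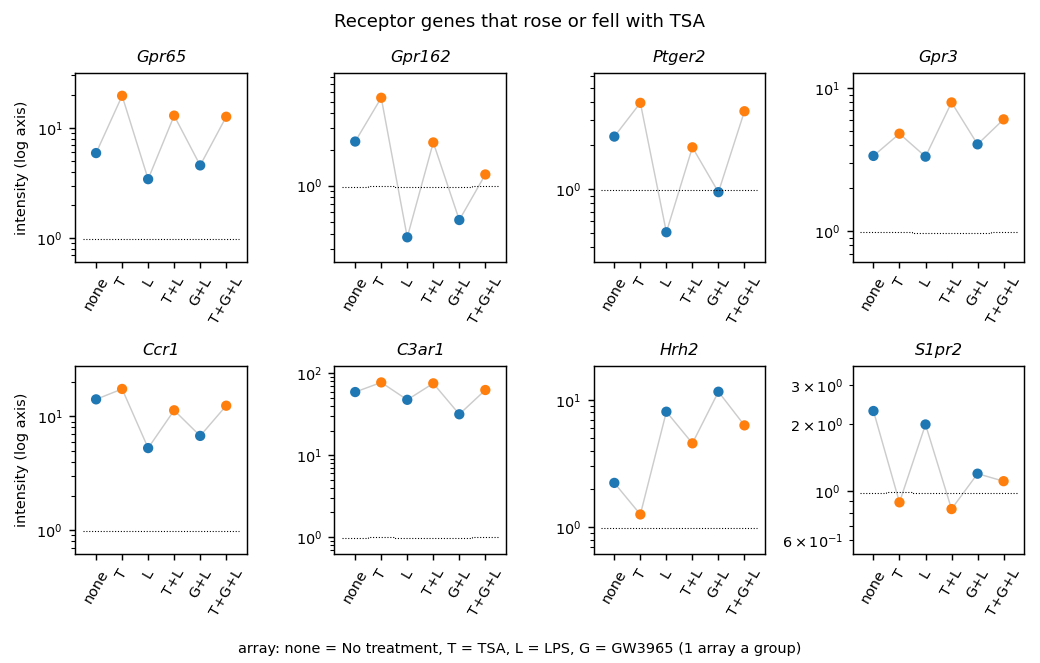
Intensity (log axis) of the 8 receptor genes that rose or fell with TSA, 1 point for each array, orange with TSA and blue without; the dotted line is the array median. Gpr65 lies between 12.6 and 19.5 on the 3 arrays with TSA and between 3.43 and 5.91 on the 3 without.

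Gpr65, a proton-sensing receptor coupled to Gs, read 5.91 with No treatment, 19.5 with TSA, 3.43 with LPS, 12.9 with TSA + LPS, 4.57 with GW3965 + LPS and 12.6 with TSA + GW3965 + LPS. The arrays with and without TSA did not overlap. It was 3.30-fold, 3.76-fold and 2.76-fold higher with TSA in the 3 pairs, an effect of 1.70 (SE 0.21, limma adjusted p 5.77e-05). Its LPS effect of -0.69 did not pass (SE 0.26, limma adjusted p 0.0709), though it did after quantile normalization (-0.86, adjusted p 0.0298), after cyclic loess (-0.77, adjusted p 0.0451) and without the TSA + LPS array (-0.85, adjusted p 0.0348). Over the 6 fits that leave out an array that adjusted p ran from 0.0348 to 0.27.

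Gpr162 was 2.31-fold, 6.16-fold and 2.39-fold higher with TSA, an effect of 1.70 (SE 0.28, limma adjusted p 0.00068). With the floor at the array median that effect was 0.92 (adjusted p 0.0173, the highest of a range from 7.85e-08 over the settings). Ptger2 was 1.71-fold, 3.85-fold and 3.61-fold higher, an effect of 1.52 (SE 0.26, limma adjusted p 0.000836). Both had fallen with LPS. With TSA + LPS they read 2.29 and 1.94, near their No treatment values of 2.33 and 2.3 but below their TSA values of 5.39 and 3.93. With TSA + GW3965 + LPS they read 1.24 and 3.44. Ccr1 was 1.24-fold, 2.14-fold and 1.84-fold higher with TSA, an effect of 0.76 (SE 0.22, limma adjusted p 0.0233). Leaving out the LPS or the TSA + LPS array gave 0.59 (adjusted p 0.0675 and 0.068), and leaving out either array with GW3965 gave 0.70 (adjusted p 0.146), within 0.00557 to 0.146.

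Gpr3, a receptor that raises cyclic AMP without added ligand, read 3.37 with No treatment, 4.82 with TSA, 3.33 with LPS, 7.97 with TSA + LPS, 4.06 with GW3965 + LPS and 6.07 with TSA + GW3965 + LPS. All 3 arrays with TSA were above the 3 without, and the effect was 0.78 (SE 0.23, limma adjusted p 0.0237). The call was lost without the LPS or TSA + LPS array (0.55, adjusted p 0.0874 and 0.0892) and without the GW3965 + LPS or TSA + GW3965 + LPS array (0.89, adjusted p 0.052 and 0.0515), within 0.0216 to 0.0892. C3ar1 read 59.1 with No treatment, 77.5 with TSA, 47.5 with LPS, 75.5 with TSA + LPS, 31.6 with GW3965 + LPS and 62.6 with TSA + GW3965 + LPS. Again the 3 TSA arrays were the highest, and the effect was 0.68 (SE 0.20, limma adjusted p 0.0249). It was 0.53 without the GW3965 + LPS array (adjusted p 0.281) or the TSA + GW3965 + LPS array (adjusted p 0.284), within 0.0123 to 0.284, and 0.52 after cyclic loess (adjusted p 0.0631).

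Hrh2, which rose with LPS, was lower with TSA by 1.77-fold, 1.77-fold and 1.84-fold, an effect of -0.84 (SE 0.21, limma adjusted p 0.0116). Without the GW3965 + LPS or the TSA + GW3965 + LPS array it was -0.83 (adjusted p 0.0751 and 0.0753), within 0.00351 to 0.0753. S1pr2, a receptor of sphingosine 1-phosphate that restrains migration, read 2.3 with No treatment, 0.891 with TSA, 2 with LPS, 0.831 with TSA + LPS, 1.2 with GW3965 + LPS and 1.11 with TSA + GW3965 + LPS. The 3 TSA arrays were the lowest, although the pair with GW3965 differed by only 1.08-fold. The effect was -0.91 (SE 0.27, limma adjusted p 0.0265). It was -0.69 without the No treatment array (adjusted p 0.205) or the TSA array (adjusted p 0.189), within 0.00142 to 0.205. Ccrl2 was 1.39-fold, 1.80-fold and 1.28-fold lower with TSA, and its effect of -0.56 did not pass (SE 0.19, limma adjusted p 0.0501). It passed after quantile normalization (-0.73, adjusted p 0.0117), after cyclic loess (-0.76, adjusted p 0.00788) and with a level filter of 1 or 3 arrays (adjusted p 0.0492), in a range of 0.00788 to 0.0851 over the settings that use all 6 arrays.

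**Figure D4:**
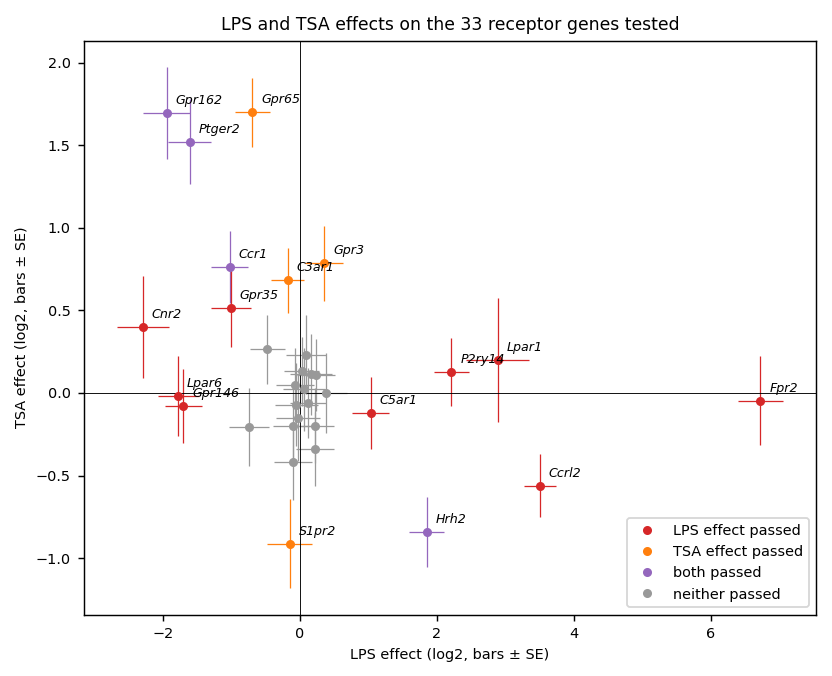
LPS effect (horizontal) and TSA effect (vertical) of the 33 receptor genes tested, in log2 units with bars of ± SE from limma; both come from the same fit of the same 6 arrays. Gpr162, Ptger2 and Ccr1 (purple, upper left) passed with negative LPS and positive TSA effects, and Hrh2 (purple, lower right) with a positive LPS and a negative TSA effect.

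Whether the LPS response itself differed with TSA was tested with an interaction term, which sets the TSA effect in the 2 pairs with LPS against that in the pair without. This model left 1 residual degree of freedom, and limma estimated infinite prior degrees of freedom for it. Its error therefore came wholly from the trend of variance with intensity over all genes, not from a gene's own scatter. Of the 33 receptors, 1 had a smaller response with TSA, against 0.208% of all tested genes, and 0 had a larger one, against 0.0624%. At an unadjusted p under 0.05 limma gave 2 smaller and 0 larger, beside 148 smaller and 92 larger among all 4806 tested genes. The gene that passed was Lpar1. It was at least 20.1-fold higher with LPS than with No treatment and 2.74-fold higher with TSA + LPS than with TSA, an interaction of -2.56 (SE 0.60, limma adjusted p 0.0179). TSA itself went with at least 3.76-fold more Lpar1 without LPS, and with 1.95-fold and 1.27-fold less in the pairs with LPS. Its additive TSA effect of 0.20 did not pass (SE 0.38, limma adjusted p 0.763), but was 0.78 and passed without the LPS array (adjusted p 0.0278) or the TSA + LPS array (adjusted p 0.0208), within 0.0208 to 0.382 over the 6 fits that leave out an array. Its No treatment value was under the floor, and with the floor raised to the array median the interaction was -0.66 (adjusted p 0.986, the highest of a range from 0.00192 over the settings). Fpr2 was 200-fold higher without TSA and 56.1-fold higher with it, and its interaction of -1.56 did not pass (SE 0.44, limma adjusted p 0.098). It passed after quantile normalization (-1.74, adjusted p 0.0228), within 0.0228 to 0.922 over the settings.

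The other receptors that moved with LPS did so in both pairs, and their interaction did not pass. Ccrl2 was 12.9-fold and 9.98-fold higher without and with TSA, P2ry14 6.17-fold and 3.48-fold, Hrh2 3.61-fold and 3.62-fold and C5ar1 1.84-fold and 2.28-fold. Lpar6 was 3.86-fold and 3.05-fold lower and Gpr146 3.17-fold and 3.32-fold lower. Larger gaps between the pairs were seen for Cnr2, at least 9.12-fold and 2.63-fold lower, and Gpr162, 6.28-fold and 2.35-fold lower. Ptger2 was 4.57-fold and 2.03-fold lower, Ccr1 2.68-fold and 1.54-fold lower and Gpr35 2.83-fold and 1.42-fold lower. The interaction estimates of these 5 were 1.15 (SE 0.64), 0.73 (SE 0.60), 1.13 (SE 0.59), 0.69 (SE 0.47) and 0.79 (SE 0.57). With the floor at the array median those of Cnr2 and Ptger2 were 0.37 and 0.62, and that of Gpr162 turned to -0.43.

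**Figure D5:**
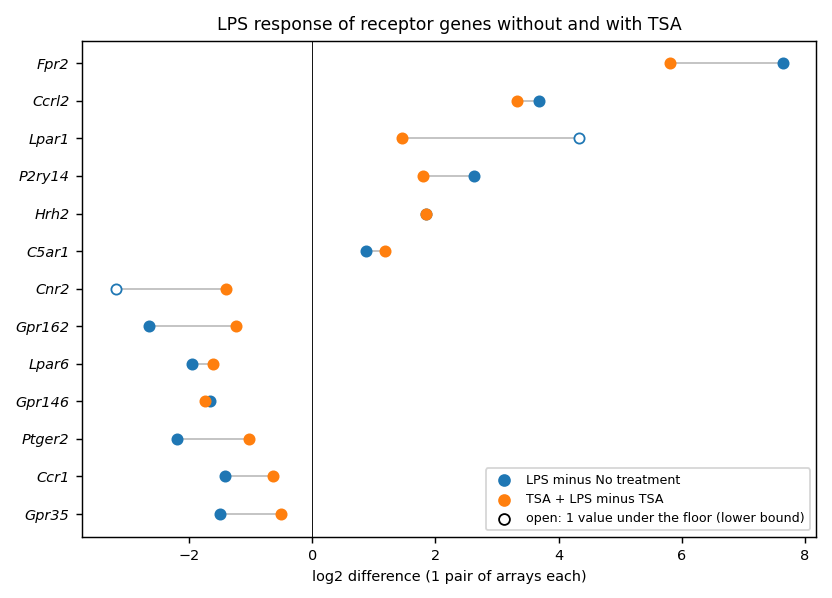
LPS response (log2 difference of 1 pair of arrays) of the 13 receptor genes that moved with LPS, without TSA (blue) and with TSA (orange); open circles are lower bounds because a value was under the floor. Lpar1 and Fpr2 have the widest gaps among the genes that rose, and Hrh2 and Gpr146 lie nearly on top of each other.

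None of the receptors passed for GW3965. Of all 4806 tested genes 5 passed, so the count says nothing about the receptors as a class. Of the 33 tested, 0 rose, against 0.0832% of all tested genes, and 0 fell, against 0.0208%. At an unadjusted p under 0.05 limma gave 1 that was higher, Ptger2, and 0 that were lower. Among all 4806 tested genes 60 were higher and 72 lower at that threshold. Ptger2 was 1.89-fold higher with GW3965 + LPS than with LPS and 1.77-fold higher with TSA + GW3965 + LPS than with TSA + LPS, an effect of 0.87 (SE 0.32) whose limma adjusted p was close to 1. Without the TSA + LPS array Ptger2 passed at 1.19 (adjusted p 0.0364) and Lpar1 at -1.26 (adjusted p 0.0323), the lowest adjusted p of the 6 fits that leave out an array in both cases, the highest being close to 1. The median effect was -0.04 over the receptors and 0.01 over all tested genes.

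Most of the chemokine ligands tested rose with LPS. Of 25 chemokine ligand genes tested (32 of 36 listed were on the array), 18 rose with LPS and 7 did not pass. Their median effect was 2.57, beside 0.04 over all tested genes. Of all tested genes 12.5% rose and 6.76% fell with LPS, and 10.8% rose and 7.64% fell with TSA. Cxcl10, Cxcl11 and Camp entered the test only through arrays with LPS, and Ccl24 only through LPS and GW3965 + LPS. The counts of this and the following lists therefore support nothing about the lists as classes. Cxcl10, a ligand of Cxcr3, rose by 7.67 (SE 0.29, limma adjusted p 2.21e-12), and Ccl7, a ligand of Ccr1 and Ccr2, by 7.14 (SE 0.24, limma adjusted p 5.71e-13). With TSA 2 ligands rose and 4 fell, among them Cxcl11, up by 1.18 (SE 0.28, limma adjusted p 0.00931), and Ccl24, an eosinophil attractant, down at -1.45 (SE 0.35, limma adjusted p 0.0099). Cxcl10 was the ligand that fell with GW3965 (-1.97, SE 0.29, limma adjusted p 0.00333). Of 6 genes that give rise to complement or formyl peptide receptor ligands or act on their formation, 3 rose with LPS and 3 did not pass. Their median was 0.89. Cfb, factor B of the alternative pathway, rose by 3.52 (SE 0.32, limma adjusted p 2.16e-07). Camp, the cathelicidin precursor, whose peptide binds formyl peptide receptors, rose by 2.91 (SE 0.33, limma adjusted p 3.25e-06), and Camp is also one of the neutrophil markers. Both arrays without LPS were under the floor for Camp, as was No treatment for Ptgs2 and Cxcl11 and LPS for Gnb5, so these fitted effects depend on the floor too. With TSA 0 of the 6 passed, and at an unadjusted p under 0.05 limma gave 3, all lower. Among all 4806 tested genes 688 were lower and 860 higher with TSA at that threshold.

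Genes of enzymes and transporters that make, move or remove the small ligands moved in both directions. Of 10 prostanoid genes tested, the transporter Slco2a1 among them, 4 rose with LPS and 1 fell (median 0.50), while 1 rose with TSA. Ptges, which makes prostaglandin E2, rose by 3.55 (SE 0.26, limma adjusted p 1.65e-08), and Ptgs2, the inducible cyclooxygenase, by 2.74 (SE 0.42, limma adjusted p 9.35e-05). Pla2g4a, which frees arachidonic acid, rose by 0.89 with TSA (SE 0.24, limma adjusted p 0.0156). Of 9 genes listed for purine release and breakdown, 2 rose and 2 fell with LPS (median -0.29). That list also holds P2rx1, P2rx4 and P2rx7, which encode ATP-gated channels. The purine nucleoside phosphorylase Pnp rose by 2.46 (SE 0.24, limma adjusted p 4.52e-07) and the nucleoside transporter Slc28a2 by 1.23 (SE 0.35, limma adjusted p 0.0191). Of 5 genes of lysophospholipid metabolism, 3 rose with LPS and 2 did not pass (median 1.06), and 1 fell with TSA. They include Sgpl1, which cleaves sphingosine 1-phosphate, up by 1.66 (SE 0.28, limma adjusted p 0.000234), and Plpp3, which removes phosphate from LPA, up by 1.26 (SE 0.28, limma adjusted p 0.00287). Plpp3 was the gene that fell with TSA (-0.79, SE 0.23, limma adjusted p 0.0239). Of 5 genes of amine and endocannabinoid metabolism, 2 fell with LPS (median -0.81), Mgll, which breaks down an arachidonoyl endocannabinoid (-1.32, SE 0.30, limma adjusted p 0.00343), and Abhd12 (-0.89, SE 0.25, limma adjusted p 0.0151). With TSA 2 of these 5 rose and 2 fell, Abhd6 at 1.88 (SE 0.26, limma adjusted p 0.000147) and Mgll at -1.62 (SE 0.24, limma adjusted p 0.000328) being the most changed. Abhd6 was at or above the array median only on the 3 arrays with TSA, at 1.1 to 1.5. It entered the test only through them. Ptges, Ptgs2 and Slc28a2 entered it only through arrays with LPS.

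Genes that act behind the receptors were read the same way. Of 14 G protein subunit genes tested (24 of 31 listed were on the array), 1 rose and 1 fell with LPS (median 0.18), and 3 rose and 1 fell with TSA (median -0.05). Gnb4 rose by 1.25 with LPS (SE 0.31, limma adjusted p 0.00798). Gnb5 fell with LPS (-1.35, SE 0.35, limma adjusted p 0.0093) and rose with TSA (1.61, SE 0.28, limma adjusted p 0.0011), and Gng11 rose with TSA (0.94, SE 0.21, limma adjusted p 0.00588). Gnb5 reached the array median only with TSA and with TSA + GW3965 + LPS, at 1.31 and 1.02. It entered the test only through these arrays. Receptor kinases, arrestins and RGS proteins end G protein signals. The 9 of their genes tested were Grk5 and Rgs genes, with no arrestin. Of these, 3 fell with LPS and 6 did not pass (median -0.70), and 4 rose and 1 fell with TSA (median 0.22). Rgs2 fell with LPS (-1.69, SE 0.24, limma adjusted p 4.33e-05), as did Rgs18 (-1.57, SE 0.31, limma adjusted p 0.00121). Rgs18 rose with TSA (2.01, SE 0.26, limma adjusted p 7.62e-05), and so did Rgs10 (0.93, SE 0.22, limma adjusted p 0.00927). Of 10 cyclic AMP and phosphoinositide effectors, 3 rose and 1 fell with LPS (median 0.20). The calcium channel Itpr2 rose by 1.36 (SE 0.25, limma adjusted p 0.000565) and the transcription factor Atf1 fell (-1.37, SE 0.31, limma adjusted p 0.00343).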

How the data were processed

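Biotin-labelled RNA of 6 groups was hybridised to 1 array each. The authors deposited linear intensity values that they had already scaled between arrays. The method is not given in the sources used here. Of 10076 probes, 8983 carried 1 gene symbol, 1 several and 1092 none, which gave 8841 genes. A gene was read from its probe with the highest mean. Values were floored at each array's 25th percentile and log2-transformed. Genes at or above the array median on at least 2 arrays were fitted with limma 3.58.1 in R 4.3.3, with an intensity trend. The additive model had terms for LPS, GW3965 and TSA (2 residual and 15.1 prior degrees of freedom). A second model added LPS by TSA (1 residual and infinite prior degrees of freedom). The pipeline was tested on simulated data.

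The members and gene lists were chosen with earlier results of these data known. Every receptor gene at or above the median on 1 array or more is named. From each list the called genes with the largest LPS and TSA effects, at most 2 of each, are named. Alternatives covered scaling, floor, level filter, probe choice, variance trend, model and each array left out. The number of arrays limits the precision. Protein sequences were not used here.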

Additional observations from a re-analysis of the deposited data

Results flagged for a closer look

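Lpar1, a receptor of lysophosphatidic acid, passed the test of whether the LPS response differs without and with TSA. The limma interaction, which had 1 residual degree of freedom, was -2.56 on the log2 scale (SE 0.60, adjusted p 0.0179). Lpar1 read 4.58 with LPS and was under the floor with No treatment at 0.221, so the response without TSA is a lower bound. With TSA it read 2.34 with LPS and 0.857 without. Both values without LPS were below the array median, so Lpar1 entered the test only through the 4 arrays with LPS, and the LPS-free side of the contrast is 1 pair of arrays. The call ended with the floor at the array median, where the interaction was -0.66 (adjusted p 0.986, within 0.00192 to 0.986 over the settings). No group had more than 1 array, so no array could be set against others of its group.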

How the results depend on the processing

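Each effect on a receptor gene was compared once with each alternative setting, so the same effect is counted several times. Of these comparisons, 1266 kept their side of the threshold, 7 gained a call and 2 lost one. The fits that leave out an array are not counted. Of 217 comparisons of effects called as reported, 0 changed sign, and of 1058 comparisons of effects not called, 23 did. With each array left out in turn, the receptors that fell with LPS numbered 4 to 8 (7 with all arrays), and all genes called for LPS 561 to 1130 (927). For TSA 3 to 6 receptors rose (6) and 1 to 2 fell (2). For GW3965 0 to 1 rose and 0 to 1 fell (0 each), and 6 to 57 genes in all were called (5). The GW3965 count was 20 without a level filter and 18 in the model with the interaction. The interaction called 13 genes and 1 receptor. It called 20 and 2 after quantile normalization, 0 and 0 with the floor at the array median, and 8 genes without the intensity trend. The cause of these shifts was not tested. Quantile normalization moved the median LPS effect of all genes from 0.04 to -0.10. The same 6 receptors rose with LPS under it and under cyclic loess, and the same 7 fell, with Gpr65 added. A level filter of 3 arrays left Cnr2 and Lpar6 untested. Without a level filter 7 receptors rose and 9 fell with LPS, with Ccr6 and with Ccr2 and P2ry1 added, and 9 rose and 3 fell with TSA, with Ccr2, Ccr6 and P2ry1 and with Gpr31b added. Their highest values were each on 1 array, Ccr6 at 0.813 with TSA + LPS, Ccr2 and P2ry1 at 0.682 and 0.689 with TSA, and Gpr31b at 1.42 with LPS. Signal over background limits the 31 receptors below the median on all arrays.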
